A study of Mus musculus with 230 samples.

Results

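Sensory neurons of the dorsal root ganglion carry touch, pain and position signals from the body, and their cut axons can regrow in peripheral nerve. After such an injury a neuron is known to switch on transcription factors such as Atf3, neuropeptides that are scarce at rest, and Sprr1a, a small proline-rich protein first known from skin that promotes axon outgrowth. Sciatic nerve injury damages the axons of some neurons of a ganglion and spares others, so single cells of an injured ganglion can differ in this response.

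The cells described here were single neurons picked by hand from L4 ganglia of C57BL/6 X CAST/Ei mice, labelled as injured and as 1 month of age. They were chosen by column name and depth, and were then grouped by their own Sprr1a level. Of 13 L4 injured cells, 11 held at least 50000 counts outside the single feature CT010467.1, which took 29.4% to 71.5% of the endogenous counts of these 11 cells. In 7 cells Sprr1a was at 100 CPM or more (counts scaled to a common total, without spike-ins and CT010467.1), and these are called Sprr1a-high. In the other 4 it was under 100 CPM, and these are called Sprr1a-low. The series holds 230 samples in all, of which 136 are RNA samples in 87 columns, 69 of them single cells and 18 low-input libraries. The low-input libraries come from the same cross, 3 injured and 3 intact at each of 1, 8 and 12 months. The other cells used beside them were injured L5 and intact L4 cells at 1 month and injured cells at 1 year, all from the same cross. The labels name no animal for a cell and give no time after surgery, and do not say whether a picked cell's own axon was injured.

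Sprr1a itself set the groups, so its values are a description. The gene lies on chromosome 3 (GRCm38, 92483952 to 92485895). In the Sprr1a-high cells it was at 8059 CPM in L4R9M, 7282 in L4R4M, 7123 in L4R15M, 3610 in L4R12m, 3444 in L4R14L, 1425 in L4R6L and 303 in L4R10S. In the Sprr1a-low cells it was at 28 CPM in L4R2, 8.35 in L4R8M, 6.33 in L4R16 and 0 in L4R13S. The cell just inside the threshold was L4R10S and the cell just outside it was L4R2, and no cell lay between them. Thresholds of 50 and 200 CPM gave the same 7 and 4 cells. The 0 of L4R13S came from 203957 counts, the 8.35 CPM of L4R8M from 1 count, and the 303 CPM of L4R10S from 24 counts. The 2 L4 injured cells left out for depth held 8369 and 15071 counts, with 1 and 0 counts of Sprr1a.

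The 250 bases before the start of Sprr1a are shown because Sprr1a defines the cells and its promoter was the only one of those searched with a match to AP-1, the site bound by Jun and its partners. They are RefSeq sequence of GRCm38.p6, chr3:92485882-92486131, minus strand, 5′ to 3′. Capitals mark the letters TGANTCA, which is its own reverse complement.

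Sprr1a: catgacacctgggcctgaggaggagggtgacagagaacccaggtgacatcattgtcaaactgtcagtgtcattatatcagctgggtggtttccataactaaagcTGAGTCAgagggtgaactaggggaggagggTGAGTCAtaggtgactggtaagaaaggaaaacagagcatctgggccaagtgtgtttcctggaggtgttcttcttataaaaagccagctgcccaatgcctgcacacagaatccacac

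The stretch holds 2 matches, and 6.75% of 32851 mouse promoters of this length hold at least 1. The 12 genes with the largest differences between the groups, named further on, were searched in the same way. Of the 12 genes 7 were matched in the table and used, 1 of 7 (Sprr1a) held the AP-1 letters, and 0 of 7 held the cyclic-AMP response element TGACGTCA, which 1.55% of promoters hold. Both strands were searched, and no stretch of the 7 genes held both motifs. A match is a string of letters and not a measured site.

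Depth and quality differed among the 11 cells. Counts outside CT010467.1 ran from 79135 (L4R10S) to 6004381 (L4R14L), with a median of 1033580 in the Sprr1a-high and 458896 in the Sprr1a-low cells. L4R8M stood apart. It held 119832 counts, 68.3% of them mitochondrial against 0.169% to 9.56% in the other 10 cells, and 607 genes were detected in it against 6056 to 14690 in the others. Uchl1, a ubiquitin hydrolase found at high levels in neurons, was at 0 in L4R8M and at 1665 to 3939 CPM in the 10 others, and the other 9 general neuron markers were also at 0 there. Prx, a gene of myelinating Schwann cells, was at 4331 CPM in L4R8M and at no more than 8.51 CPM elsewhere. Apoe and Sparc, abundant in glia, were at 3972 and 3989 CPM and at no more than 23.8 and 25.5 CPM elsewhere. These values go against the label of a neuron for L4R8M. It did hold some neuronal transcripts, with Calca at 1694, Stmn2 at 1460 and Tubb3 at 843 CPM, and Nts and Ret as given below. The summed level of 10 vascular and connective tissue markers was 2720.5 CPM in it and at most 298 CPM elsewhere. What this cell was is thus not settled, and results are given with it (11 cells) and without it (10 cells, 3 of them Sprr1a-low). L4R15M was also thin, with 6056 genes detected, and spike-ins made up 93% of its counts and 99.2% of those of L4R8M.

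The other 10 cells carried the neuron markers, but they were not of one neuron type. L4R16 and L4R13S, both Sprr1a-low, had some of the genes of peptidergic nociceptors. Calca, which encodes the pain peptide CGRP, was at 26824 and 6286 CPM in them, and the sodium channel gene Scn10a at 1206 and 912 CPM. Tac1, which encodes substance P, was at 0 in both, and the capsaicin receptor gene Trpv1 was at 1.58 CPM in L4R16 and 132 CPM in L4R13S. L4R2, the third Sprr1a-low neuron, had genes of the neurofilament type instead, some of them known from muscle afferents, with the calcium buffer Pvalb at 1752 CPM, the transcription factor Etv1 at 968 CPM and the neurotrophin-3 receptor Ntrk3 at 535 CPM, and Calca at 7 CPM. Among the Sprr1a-high cells, L4R10S had nociceptor genes, with Calca at 5320, Tac1 at 1693, Trpv1 at 291 and Scn10a at 253 CPM. In the other 6 Sprr1a-high cells Calca lay between 0 and 269 CPM, Scn10a between 0 and 8.45 CPM and Pvalb between 0 and 53.9 CPM. The heavy neurofilament Nefh was at 662 to 2653 CPM in those 6 cells and at 190 CPM in L4R10S. It was at 1348 to 4386 CPM in the 3 Sprr1a-low neurons, so it overlapped. Ntrk3 was not particular to L4R2. It was at 341 CPM in L4R9M, 245 in L4R4M, 236 in L4R15M, 72.4 in L4R14L, 10.4 in L4R12m and 3.87 in L4R6L. Ntrk2, another neurotrophin receptor, was at 189 to 230 CPM in L4R12m, L4R14L and L4R6L. It was at 1.41 to 48.9 CPM in L4R9M, L4R4M and L4R15M, and at most 14.7 CPM in the low neurons. Neuron type thus moved with the Sprr1a group in part, and its part in the differences below was not tested.

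**Figure D1:**
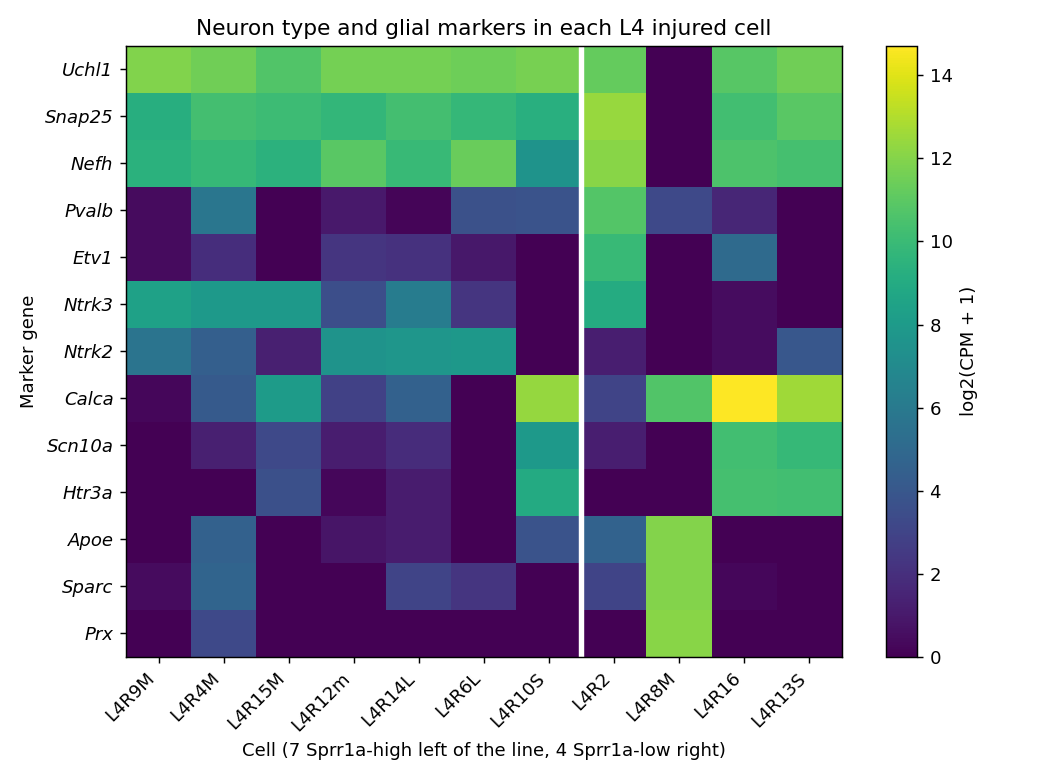
Levels of neuron type and glial marker genes (rows) in each of the 11 L4 injured cells (columns, ordered by Sprr1a within each group), as log2(CPM + 1) on the colour scale. Calca and Scn10a are bright in L4R10S, L4R16 and L4R13S, Pvalb in L4R2, and Prx in L4R8M, where Uchl1 is at 0. Calca is also bright in L4R8M, at 1694 CPM.

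The main question was which other genes went with Sprr1a. Because Sprr1a of these same cells drew the groups and no animal is named, there is no test between them, and a size rule was used. A gene passed when the means of log2(CPM + 1) differed by at least 2 and when at least 90% of the pairs of 1 high and 1 low cell pointed one way, among genes with a mean of at least 10 CPM. With 11 cells (28 pairs), 322 of 8245 genes passed as higher in Sprr1a-high cells (3.91%, Sprr1a included) and 2 as lower (0.0243%). With 10 cells (21 pairs), 175 of 8433 passed as higher (2.08%) and 176 as lower (2.09%). Of the 322 genes, 165 also passed with 10 cells, which are 51.2% of the 322 and 94.3% of the 175. L4R8M had a count of 0 for 305 of the 322, and for 173 of the 176 lower genes, against 93.7% of all 8491 genes described. Without another single cell the number higher was 776 (L4R2), 738 (L4R16), 728 (L4R13S), 645 (L4R15M) and 528 (L4R10S), and it was 325 to 359 without any 1 of the remaining 5. The ranges of the groups did not overlap for 111 genes higher with 11 cells (1.35%), and for 119 higher (1.41%) and 122 lower (1.45%) with 10 cells. The numbers higher and lower were thus nearly equal in the 10 neurons.

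The 12 largest differences over 11 cells were, in order, Sprr1a, Cdkn1a, Gpr151, Npy, Car3, Atf3, Cbln2, Cd24a, Gfra1, Tubb6, Adam8 and Gal. Over 10 cells Nts, Tmem159 and Adgrd1 took the places of Gfra1, Tubb6 and Gal, which still passed the rule.

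Transcription factors come first in the response. Atf3, a stress-induced factor and a standard mark of axotomised neurons, was at 3634 CPM in L4R9M, 2549 in L4R4M, 352 in L4R15M, 1781 in L4R12m, 1131 in L4R14L, 1296 in L4R6L and 114 in L4R10S. In the Sprr1a-low cells it was at 42 CPM in L4R2, 19.6 in L4R13S, 0.791 in L4R16 and 0 in L4R8M. The ranges did not overlap, and the difference of means was 7.30 on the log2(CPM + 1) scale with 11 cells and 6.42 with 10. Jun, its partner in the AP-1 complex, did overlap, at 95.7 to 771 CPM in the high and 0 to 289 CPM in the low cells. Its difference was 3.53 with 11 cells, past the rule, and 1.76 with 10, short of it. Klf6, a Krüppel-like factor linked to axon growth, was at 152 to 287 CPM in every high cell and at 0 to 68.2 CPM in the low cells. Sox11, a factor of growing neurons, was at 45 to 236 CPM in 6 high cells and at 0 in L4R10S, and at 0 to 4.90 CPM in the low cells, and it did not pass. Of 20 injury transcription factors, 15 passed the level filter over 11 cells and 14 over 10. With 11 cells 4 of them passed as higher (Atf3, Jun, Klf6 and Klf7), with 10 cells 2 (Atf3 and Klf6), and 0 were lower. Their median difference was 1.08 with 10 cells, beside −0.24 for all genes. The share of all genes that passed as higher was 3.91% with 11 cells and 2.08% with 10.

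Neuropeptides and other secreted factors follow. Npy, neuropeptide Y, was at 6234 CPM in L4R6L, 5081 in L4R4M, 5004 in L4R12m, 4662 in L4R15M, 2270 in L4R14L, 937 in L4R9M and 126 in L4R10S. It was at 8.41 CPM in L4R2, 4.15 in L4R16 and 0 in L4R13S, while L4R8M held 134 CPM. The 3 Sprr1a-low neurons were thus all under the lowest Sprr1a-high cell, and only L4R8M overlapped. Nts, neurotensin, was at 1675 CPM in L4R12m, 845 in L4R4M, 775 in L4R14L, 370 in L4R6L, 184 in L4R15M, 68.7 in L4R9M and 12.6 in L4R10S, against 0, 0.988 and 0 CPM in L4R2, L4R16 and L4R13S. L4R8M held 2211 CPM of Nts, the highest value of the 11 cells, and with it Nts did not pass. Gal, galanin, was at 7323 CPM in L4R14L and at 25.3 to 464 CPM in the other 6 high cells, against 0 to 11.3 CPM in the low cells. Galanin was therefore above every low cell throughout, but most of its level lay in 1 cell. The values of Nts and Gal in L4R10S, where 1 count was worth 12.6 CPM, rested on very few counts.

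Among the other secreted factors, Csf1, the growth factor that neurons use to activate microglia, was at 32.4 to 543 CPM in high and at 0 to 8.70 CPM in the 3 low neurons, with 33.4 CPM in L4R8M. Adcyap1, which encodes the peptide PACAP, was at 158 to 988 CPM in high and 0 to 142 CPM in low cells. Ucn, urocortin, was at 0 in all 4 low cells and in L4R10S, and at 19.2 to 150 CPM in the 6 other high cells. Of 16 genes in this list 11 passed the level filter, of which 6 passed the rule as higher with 11 cells and 8 with 10 cells (Gal, Npy, Nts, Ucn, Adcyap1, Csf1, Fgf3 and Pappa2), where 3.91% and 2.08% of all genes did. Vip, Lif, Reg3b and Penk were among those that failed the filter, none of these 4 above 18.5 CPM in any cell. The list was drawn up with earlier results of these data known, so its direction is not independent evidence. The level filter was a mean over all cells. Genes near 0 in the low neurons, such as Ucn, Fgf3 and Pappa2, therefore passed it through the high cells. The share past the rule was thus set in part by the filter.

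**Figure D2:**
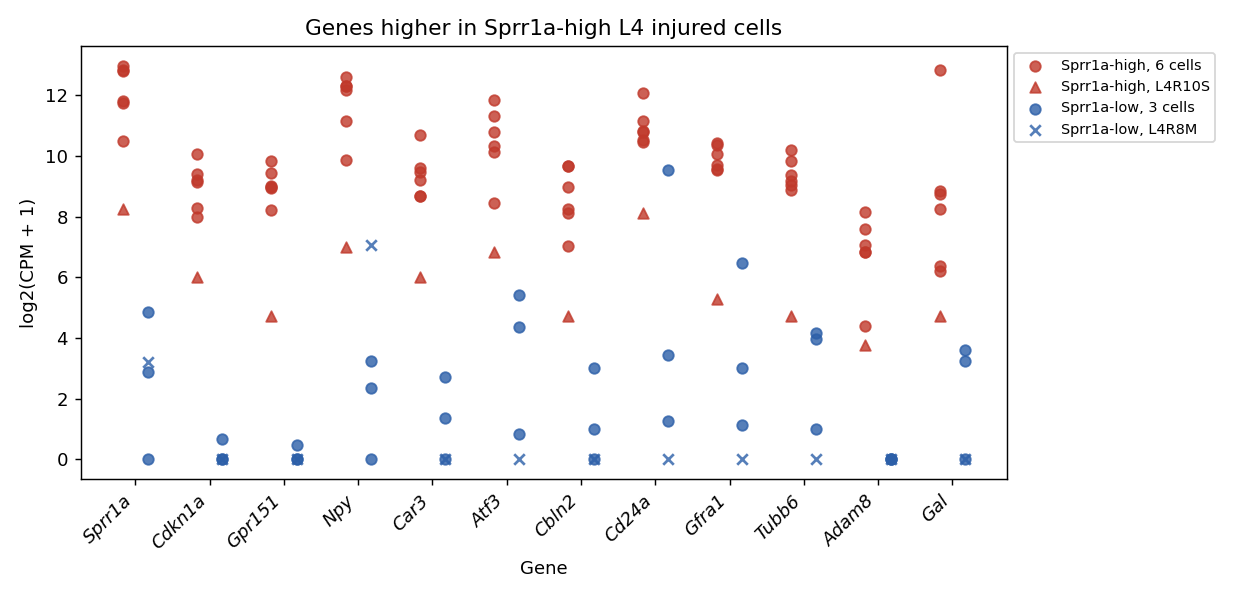
Levels of the 12 genes with the largest positive differences over 11 cells, as log2(CPM + 1), with each point 1 cell, Sprr1a-high in red and Sprr1a-low in blue. The triangle (L4R10S) is the lowest red point for all 12 genes and lies above every blue point except for Npy, Cd24a and Gfra1. The cross (L4R8M) overlaps the red points for Npy. In L4R10S 1 count was worth 12.6 CPM.

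Cdkn1a, the cell cycle inhibitor p21 and a p53 target, was at 63.2 CPM in L4R10S and at 251 to 1065 CPM in the 6 other high cells. It was at 0 in 3 low cells and at 0.593 CPM in L4R16. The groups lay 8.41 apart with 11 cells and 8.36 with 10. Gadd45a, another stress-induced gene, was at 4.22 CPM in L4R15M and at 37.9 to 176 CPM in the other high cells, against 0 to 9.81 CPM in the low cells. Ccng1, also a p53 target, passed with 11 cells and not with 10. Ddit3, the stress factor CHOP, went the other way, at 0.167 to 65.9 CPM in high cells and 44.1 to 89 CPM in the 3 low neurons. Of 15 stress and p53 genes, 11 passed the level filter with 11 cells and 12 with 10. With 11 cells 3 passed as higher (Cdkn1a, Gadd45a and Ccng1). With 10 cells 2 were higher (Cdkn1a and Gadd45a) and 1 lower (Ddit3). Over all genes, 3.91% were higher with 11 cells, and with 10 cells 2.08% were higher and 2.09% lower.

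Genes of the growing axon were split. Tubb6, a beta-tubulin, was at 473 to 1172 CPM in 6 high cells and at 25.3 CPM in L4R10S, against 0 to 16.8 CPM in the low cells. Tubb2b, a beta-tubulin of young neurons, was at 434 to 1069 CPM in high and 0 to 284 CPM in low cells. Cacna2d1, the calcium channel subunit bound by gabapentin, was at 118 to 892 CPM in high and 2.80 to 83.4 CPM in low cells. Cd44, a receptor for hyaluronan, was at 5.63 to 212 CPM in high and 0 to 1.40 CPM in low cells. Gap43, the growth cone protein, overlapped: it was at 1096 to 4062 CPM in the high cells, and the 2 nociceptor-type low cells L4R13S and L4R16 held 1495 and 1237 CPM, while L4R2 held 12.6 CPM. Ecel1, an injury-induced endopeptidase, was at 46.1 to 186 CPM in L4R9M, L4R4M and L4R12m, at 12.6 CPM in L4R10S and at 0 in the 3 other high cells. Of 24 genes in this list 22 passed the level filter, and 7 of them passed as higher with 11 cells and 5 with 10 (Tubb2b, Tubb6, Cacna2d1, Hspb1 and Cd44). Their median difference was 1.75 with 10 cells, beside −0.24 for all genes. Among all genes 3.91% passed as higher with 11 cells and 2.08% with 10.

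Among the receptors for growth factors, Gfra1, the GDNF co-receptor, was at 749 to 1381 CPM in 6 high cells and 37.9 CPM in L4R10S, against 0 to 88.2 CPM in the low cells. Ret, the kinase that signals for it, was at 320 to 1474 CPM in those 6 cells and 50.5 CPM in L4R10S, and at 11.9 to 93.2 CPM in the 3 low neurons, while L4R8M held 2587 CPM. Of 10 receptors, all of which passed the level filter, Gfra1 and Lifr passed as higher with 11 cells and Gfra1 and Ret with 10. For all genes the share was 3.91% with 11 cells and 2.08% with 10.

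Surface and enzyme genes completed the largest differences. Gpr151, an orphan receptor of sensory and habenular neurons, was at 25.3 CPM in L4R10S and 294 to 917 CPM in the 6 other high cells, and at 0 in 3 low cells and 0.395 CPM in L4R16. Car3, carbonic anhydrase 3, was at 63.2 to 1643 CPM in high and 0 to 5.6 CPM in low cells. Cbln2, a synaptic organiser, was at 25.3 to 821 CPM in high and 0 to 7 CPM in low cells. Adam8, a membrane metalloprotease, was at 12.6 to 282 CPM in high cells and at 0 in all 4 low cells. Each of these 4 genes kept its groups apart with 11 and with 10 cells. In L4R10S, the shallowest cell, 1 count was worth 12.6 CPM. The lowest high value thus rested on 1 count for Adam8 and on very few for Gpr151 and Cbln2. Cd24a, a surface glycoprotein of young neurons, did not, since L4R13S held 750 CPM and L4R10S 278 CPM.

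With 11 cells the lower genes were Mrps6, a mitochondrial ribosome protein, and Ppib, a peptidyl-prolyl isomerase of the endoplasmic reticulum. Mrps6 was at 39.2 to 60.2 CPM in the 3 low neurons, 517 CPM in L4R8M and 0 to 34.8 CPM in the high cells, so the ranges did not overlap, and the difference was −2.96 with 11 cells and −2.09 with 10. Ppib was at 43.4 to 72.3 CPM in the low neurons, 492 CPM in L4R8M and 0 to 53.1 CPM in the high cells, and its difference of −2.34 with 11 cells was −1.57 with 10, short of the rule. The other lower genes passed in the 10 neurons only, and the 12 of them named as the largest differences were at 0 in L4R8M, so they were chosen after its values were seen. The largest of these differences was in Kcna2, a potassium channel that restrains firing, which was at 779 CPM in L4R2, 228 in L4R16 and 191 in L4R13S. Among the high cells it was at 50.5 CPM in L4R10S and at 0 to 4.25 CPM in the 6 others, so the ranges of the 10 cells did not overlap and the difference was −6.79. Amigo3, a cell adhesion gene, was at 152 to 251 CPM in the 3 low neurons and 0 to 12.6 CPM in the high cells (−6.15). Bola3, which serves iron-sulfur cluster assembly, was at 14.7 to 98.1 CPM in the low neurons and at 0 in all 7 high cells (−4.91). Plcd4, a phospholipase C, was at 37.8 to 53 CPM against 0 to 1.41 CPM (−5.09). Pigz, Prrt3 and Vstm2a also showed no overlap.

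In the remaining named genes L4R10S sided with the low neurons. Scg2, a secretory granule protein, was at 193 to 1873 CPM in the low neurons, 366 CPM in L4R10S and 0 to 18.4 CPM in the 6 other high cells. Prkcb, a protein kinase C, was at 109 to 295 CPM in the low neurons, 227 CPM in L4R10S and 0 to 9.92 CPM in the others. Kcnip1, a potassium channel partner, Frmpd1 and Kbtbd11 had the same order. Over all 176 lower genes, L4R10S was above every other high cell for 59 and was nearer to the median of the low neurons than to that of the 6 high cells for 69. Over the 174 higher genes without Sprr1a, it was below every other high cell for 94 and nearer to the low neurons for 82. These genes were chosen with L4R10S among the high cells, and the same shares over all genes were not computed. The counts therefore do not show that L4R10S is like the low neurons in general. L4R10S, at 79135 counts, was also the shallowest of the 11 cells, so 1 count in it is worth more than in any other.

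**Figure D3:**
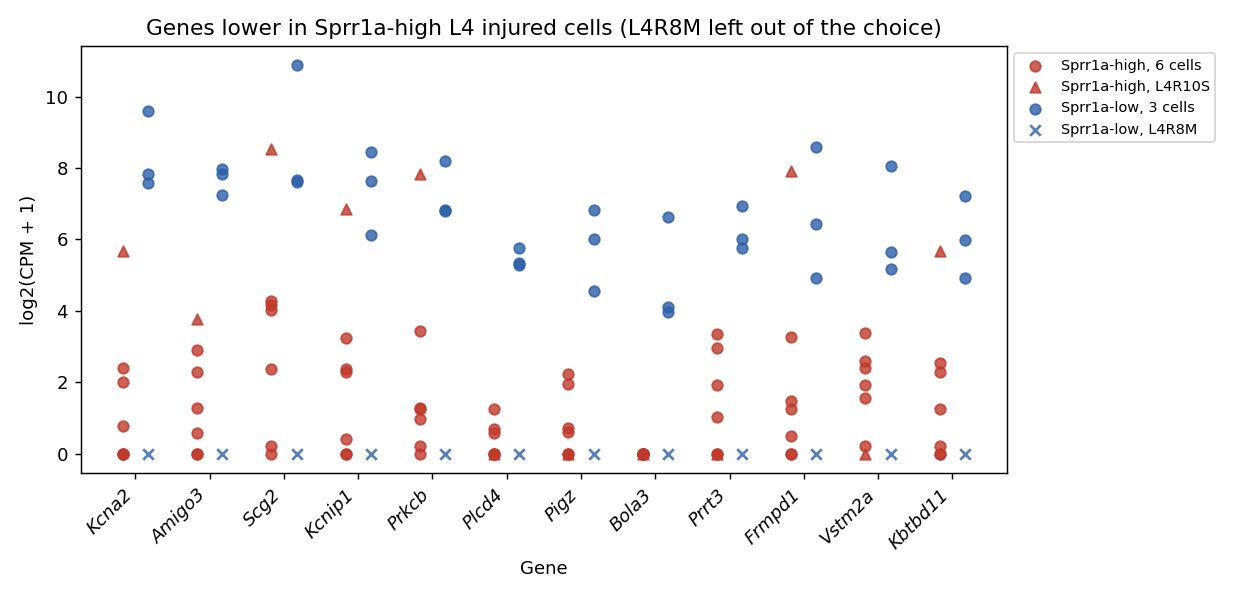
Levels of the 12 genes with the largest negative differences over 10 cells, as log2(CPM + 1), with each point 1 cell, Sprr1a-high in red and Sprr1a-low in blue. The 3 low neurons hold Kcna2 at 191 to 779 CPM against 0 to 50.5 CPM in the high cells. The triangle (L4R10S) lies among the blue points for Scg2, Kcnip1, Prkcb, Frmpd1 and Kbtbd11, and the cross (L4R8M) is at 0 throughout.

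Channels and receptors of sensory endings were examined as a list of 33 genes, of which 26 passed the level filter over 10 cells. Of these, 3 passed as lower, Kcna2 and Rph3a among them, 0 passed as higher, and 23 of the 26 had a negative difference, with a median of −1.40. Of all 8433 genes over 10 cells 5075 had a negative difference, the median was −0.24, and 2.09% passed as lower. Htr3a, a serotonin-gated channel, was at 1341 and 1221 CPM in L4R16 and L4R13S but at 0 in L4R2, so it did not pass. The summed level of the list was 5053 to 6358 CPM in the 3 low neurons and 1022 to 2855 CPM in the 7 high cells, and those ranges do not overlap. The sums of the low neurons came from different genes, however. Scn10a was at 1206 and 912 CPM in L4R16 and L4R13S and at 1.40 CPM in L4R2. In L4R2 Kcna2 was at 779, Kcnc1 at 656 and Kcna1 at 600 CPM. Kcnc1 was at no more than 4.90 CPM in L4R16 and L4R13S. The sums therefore do not show a shared change of the same channels. With 11 cells 0 of the list passed either way. Of 20 DNA methylation genes, 8 passed the level filter with 11 cells and 10 with 10 cells, and 0 passed the rule either way. Of the neuron type lists, Plxnc1 from the non-peptidergic list passed as higher and Cntnap2 from the neurofilament list as lower with 10 cells.

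Markers of other cells were low in the 10 neurons, with some exceptions. Glul, glutamine synthetase and a satellite glia marker, was at 303 to 788 CPM in 6 high cells, 11.3 CPM in L4R15M and 0 to 103 CPM in the low cells, and it passed as higher. Of the 10 satellite glia genes it was the only one to pass, and Fabp7, Kcnj10, Cdh19 and Ednrb were at no more than 1.67 CPM in any cell. The summed satellite glia level without L4R8M was 11.3 to 794 CPM in high and 39.2 to 103 CPM in low cells. The summed Schwann cell level was 379 to 1935 and 28 to 1392 CPM, most of it Pmp22. The summed immune cell level was at most 37.9 CPM in any cell. The part of glial RNA in the differences was not tested.

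The genes whose order over the 11 cells was most like that of Sprr1a were Cbln2, Tubb6, Rab31, Ndrg2, Adam8, Pappa2, Grb2 and Cdkn1a, with Spearman coefficients from 0.957 (Cbln2) down to 0.917 (Cdkn1a). This ranking is a description over 11 cells that share depth and neuron type differences. Rab31, a vesicle traffic GTPase, was at 34.8 to 542 CPM in high and 0 to 28 CPM in low cells. Grb2, an adaptor of receptor kinases, was at 126 to 275 CPM in high and 0 to 118 CPM in low cells. In 7 injured L5 cells of the same age the median of these 8 genes was at most 2.07 CPM, apart from Grb2 at 53.9 CPM, and in 18 injured cells at 1 year the medians were 0 to 6.45 CPM apart from Ndrg2 at 52.3 and Grb2 at 66.7 CPM.

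Few other cells reached the Sprr1a threshold among those with at least 50000 counts and, a filter added after seeing the data, 2000 genes. None of 7 injured L5 cells reached 100 CPM, the highest being 2.40 CPM. Of 18 injured cells at 1 year 1 did, at 1554 CPM, and that cell also held Atf3 at 929 CPM, Gfra1 at 1719 CPM, Cbln2 at 1970 CPM, Npy at 400 CPM and Cdkn1a at 272 CPM, while Kcna2 was at 37.4 CPM and Adam8 at 0. Of 8 intact L4 cells 1 did, at 304 CPM, a shallow cell of 95399 counts that held Atf3 at 335 CPM, Kcna2 at 220 CPM and Npy at 31.4 CPM. For 127 of the 176 lower genes the median of the intact L4 cells was nearer to that of the 3 Sprr1a-low neurons than to that of the Sprr1a-high cells, and for 135 of the 174 higher genes as well. For the injured L5 cells these numbers were 115 of 176 and 137 of 174, and for the injured cells at 1 year 118 of 176 and 125 of 174. The genes were chosen by a difference between the same high and low cells, and the share over all genes was not computed. These numbers therefore do not say which of the 2 groups the other cells resemble. The cells of each group come from an unstated number of animals, so no difference between groups was tested.

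The low-input libraries, which took no part in the choice of the cells, allowed a test of injury on the same genes. Averaged over ages, the edgeR quasi-likelihood test called 726 of 14212 genes higher (5.11%) and 152 lower (1.07%) in injured libraries at an adjusted p below 0.05. All 174 higher genes of the 10 cells other than Sprr1a were tested there, and 85 of them (48.9%) were called higher and 0 lower, with 158 of 174 positive and a median of 1.26 on the log2 scale beside 0.03 for all genes. The 85 are 11.7% of the 726 calls. The number was 70 to 93 when any 1 library was left out, 96 with DESeq2, 111 with no low-count filter and 76 with the replicate block, and with spike-in scaling it was 174, where 94.9% of all genes were called higher. For the 321 higher genes of 11 cells, 105 (32.7%) were called higher. Labels name no separate animals for these libraries, so the p-values measure the spread between libraries. CT010467.1 took 29.4% to 59.7% of the endogenous counts in injured and 40.4% to 93.8% in intact libraries, and the second intact library at 12 months held 770328 counts outside it. With that feature left out, 87 of the 174 were called higher.

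Of the 176 lower genes 10 (5.68%) were called lower in injured libraries, where 1.07% of all genes tested were, and 1 was called higher (Nudt13, named here after its values were seen), with 138 of 176 negative and a median of −0.30. Without the second intact library at 12 months 19 were called lower where 2.85% of all genes were, without any 1 other library 5 to 14, with DESeq2 23 of 174 and with no low-count filter 27, where 1.40% of all genes were. Scaling to spike-ins, which moved the median of all genes to 2.90, left 0 called lower. With it 173 were called higher where 94.9% of all genes were. The 9 injured libraries held Kcna2 at 99.7 ± 42.7 CPM and the 9 intact ones at 134 ± 65.7 CPM (SD), with a log2 difference of −0.40 ± 0.33 (SE) with an edgeR adjusted p of 0.537. Rph3a, a regulator of vesicle release, was lower at −1.48 ± 0.25 (SE, edgeR adjusted p = 0.00177), with 108 ± 33.5 CPM after injury and 301 ± 150 CPM in intact neurons (SD, n = 9 each), and it was at 1.54 with spike-in scaling. Amigo3 (−0.78, adjusted p = 0.0407) and Bola3 (−1.42, adjusted p = 0.025) were called lower by edgeR, but their adjusted p was above 0.05 in 13 and 9 of 24 alternatives and their sign turned with spike-in scaling.

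**Figure D4:**
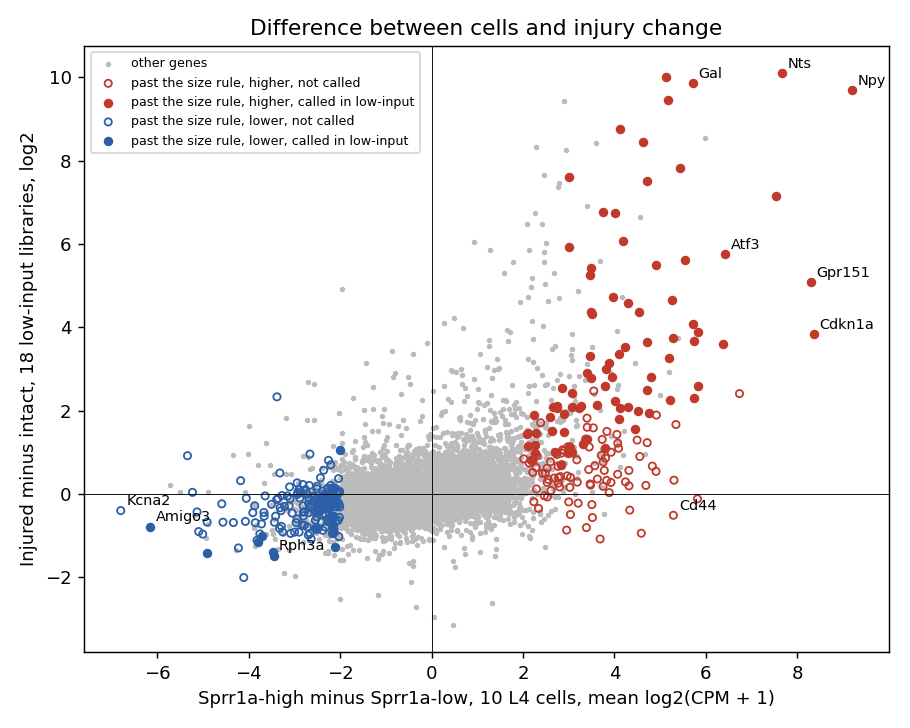
Each point is 1 gene, with the difference between Sprr1a-high and Sprr1a-low cells over 10 cells on the x axis (means of log2(CPM + 1)) and the injury change over the 18 low-input libraries on the y axis (log2, edgeR). Filled points are genes past the size rule that the low-input test called at an adjusted p below 0.05, 85 among the higher genes in red and 11 among the lower genes in blue.

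Among the named higher genes the low-input values were as follows, on their own CPM scale, whose total includes CT010467.1. Npy averaged 565 ± 229 CPM after injury and 0.917 ± 1.22 CPM in intact neurons (SD, n = 9 each), 9.69 ± 0.79 on the log2 scale (SE, edgeR adjusted p = 3.182e-06). Nts was at 196 ± 80.2 and 0.151 ± 0.195 CPM (SD, n = 9 each), 10.10 ± 0.60 (SE, edgeR adjusted p = 3.516e-08). Gal was at 344 ± 248 and 1.71 ± 3.45 CPM, 9.87 ± 0.88 (edgeR adjusted p = 2.8e-05). For genes near 0 in intact libraries the fitted change depends on the prior count edgeR adds and sets no bound.

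Atf3 rose by 5.76 ± 0.56 on the log2 scale (SE, edgeR adjusted p = 1.813e-05), from 5.21 ± 5.57 to 300 ± 144 CPM (SD, n = 9 each). Gpr151 rose by 5.08 ± 0.56 (edgeR adjusted p = 5.013e-05), Tubb6 by 4.08 ± 0.38 (8.136e-06), Cdkn1a by 3.84 ± 0.74 (0.00565), Adam8 by 3.60 ± 0.43 (8.003e-05) and Cacna2d1 by 2.80 ± 0.21 (4.073e-07). None of these calls, nor those of Npy, Nts and Gal, was lost in the 24 alternatives. Gfra1, at 2.30 ± 0.61 (edgeR adjusted p = 0.034), was above 0.05 in 12 of 24.

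Other genes of the largest differences were not called. Cd24a averaged 537 ± 348 CPM after injury and 544 ± 435 CPM without it (SD, n = 9 each), −0.12 ± 0.48 on the log2 scale (SE, edgeR adjusted p = 0.931). Cbln2 was at 68.8 ± 45.2 and 15.4 ± 21.3 CPM, 2.41 ± 0.94 (edgeR adjusted p = 0.151). Cd44 was at 44.3 ± 32.2 and 61.7 ± 63.6 CPM, −0.51 ± 0.93 (edgeR adjusted p = 0.813). Ret, at 0.29 ± 0.55 (edgeR adjusted p = 0.825), and Glul, at 0.43 ± 0.16 (0.13), were not called either. A low-input library pools many neurons, so more RNA per cell and more cells of a type cannot be told apart there.

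The gene lists were also read in this test, in which 5.11% of all genes were called higher and 1.07% lower, with a median change of 0.03. Of the injury neuropeptides and secreted factors 9 of 12 tested were called higher, of the axon growth genes 12 of 23, of the injury transcription factors 7 of 20, of the stress and p53 genes 2 of 15 (Cdkn1a and Gadd45a), and of the growth factor receptors 2 of 10 (Gfra1 and Gfra3). Their median changes were 8.03, 1.01, 0.52, 0.31 and 0.57 on the log2 scale. The lists were chosen with earlier results of these data known, so these counts are not independent evidence. Of the 33 sensory channel genes 1 was called higher (Kcnq3) and 2 lower (Hcn2 and Rph3a), with a median of −0.18. The adjusted p of Hcn2 was above 0.05 in 18 of 24 alternatives, that of Jun in 17, that of Gfra1 in 12, those of Nfil3 and Tubb2a in 8 each, that of Tubb3 in 5, and those of Tubb2b, Stmn2 and Dpysl5 in 3 each.

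At 1 month, the age of the cells, 33 of 14212 genes (0.232%) were called in the same fit, all of them higher. Of the 174 higher genes 14 (8.05%) were among them, and of the 176 lower genes 0. The 14 were 10 with the 1-month libraries paired by replicate number, a block under which 15 genes were called in all, 4 to 20 when any 1 library was left out, 35 with DESeq2 and 52 with no low-count filter. Nts rose by 11.19 ± 1.06 (SE, edgeR adjusted p = 9.763e-05), Npy by 9.85 ± 1.33 (0.00332) and Ucn by 8.09 ± 0.90 (0.000683) on the log2 scale, calls that held in all 24 alternatives. Atf3 rose by 5.26 ± 0.92 (edgeR adjusted p = 0.0274), and its call was lost in 7 of 24, the block among them (adjusted p = 0.0743).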

How the data were processed

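RNA was measured in single neurons with SMART-seq2 on the cytoplasm and in low-input libraries, per the labels' protocols. The deposited table holds raw counts per gene, which the authors made with featureCounts 1.5.2 over GENCODE vM16 with ERCC spike-ins, unstranded and from uniquely mapped pairs, per the file headers; Trim Galore, STAR and mm10 are in the submitters' processing notes. Overlapping genes, antisense genes and near-identical copies are therefore uncertain. Repeat deposits of 1 name share 1 column.

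CPM of cells left out spike-ins and CT010467.1. Differences of means of log2(CPM + 1) describe the cells with no test, as each group counts as 1 sample. Genes were named as the 12 largest positive and the 12 largest negative differences past the size rule (predicted genes, pseudogenes and mitochondrial genes left out), with list members, textbook injury genes and the 8 genes most like Sprr1a; the same rule without L4R8M was added after its values were seen. The members and lists were chosen with earlier results of these data known.

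The 18 low-input libraries (7531967 to 19443627 endogenous counts) were analysed by edgeR 4.0.16, run under R 4.3.3 (filterByExpr, TMM, robust quasi-likelihood, 6 group means, 12 residual degrees of freedom, common biological coefficient of variation 0.543), with two-sided tests and Benjamini-Hochberg adjustment. Both the fit and the size rule were tested on simulated data. The simulated cells shared a mean profile, with no mix of neuron types and no cell like L4R8M. That simulation therefore does not show how reliable the size rule is in these cells. Deviations of same-numbered libraries correlated at 0.206, 0.218 and 0.485 at 1 month. The values were −0.498, −0.352 and 0.106 at 8 months and −0.0855, −0.0976 and 0.0823 at 12 months. The numbers were taken to pair at 1 month, in the replicate-block alternative only. The main fit has no block, so its p-values ignore any such pairing. The pairing rests on the correlations alone, and values of similar size occurred with either sign. DESeq2 1.42.0 was an alternative. Each count is a fragment and not a counted molecule, so errors cover these samples only. The methylation samples were not analysed here, and some list members are counted but not reported by name here.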

Additional observations from a re-analysis of the deposited data

Results flagged for a closer look

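A cell was marked when its gap to the nearest other cell of its group was large for the range of that group (Dixon's 95% value). Of 49 such groups of values 17 were marked, where chance marks about 1 in 20, and the values are not independent since most come from 2 cells. Levels here are log2(CPM + 1).

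Among the Sprr1a-high cells, L4R10S lay below the others in Car3 (6.00), Cd24a (8.12), Gfra1 (5.28), Gpr151 (4.72), Tubb6 (4.72) and Sox11 (0), and above them in the share of CT010467.1 (71.5%). L4R15M lay below the others in Jun (6.60), Mrps6 (0) and Ppib (0). L4R6L had the highest mitochondrial share, 3.40%.

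Among the Sprr1a-low cells, L4R8M lay above the others in mitochondrial share (68.3%), Nts (11.1) and Mrps6 (9.02). The remaining 3 marks were low levels beside 3 cells at 0, in L4R16 for Cdkn1a (0.672) and Gpr151 (0.481) and in L4R2 for Ecel1 (1.26).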

How the results depend on the processing

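The Sprr1a thresholds of 50 and 200 CPM changed no group. Of the genes higher in Sprr1a-high cells, 160 passed with a pseudocount of 10 CPM, and 175 to 776 when any 1 cell was left out. Of the genes lower, 328 passed with at least 500000 counts per cell (6 high and 2 low cells, without L4R8M), 6 with mitochondrial genes out of the total, 1 with a pseudocount of 10, 1 with cells thinned to 79135 counts, and 2 to 176 when any 1 cell was left out, the 176 being without L4R8M. Averaged over ages, the low-input test called 13493 genes with spike-in scaling, 1722 with no low-count filter, 1548 with DESeq2 and 561 to 1462 without any 1 library: 561 without the second injured library at 12 months, 578 without the first injured one at 1 month and 1462 without the second intact one at 12 months. At 1 month it called 50 with spike-in scaling, 276 with no low-count filter, 123 with DESeq2, 15 with the replicate block and 6 to 47 without any 1 library. The block on the paired 1-month libraries left 648 calls averaged over ages. Signs turned with spike-in scaling for Amigo3 (1.95), Bola3 (0.94), Hcn2 (1.79), Rbfox3 (2.02) and Rph3a (1.54). The cause of these changes was not tested, apart from those that follow from fewer cells or another scaling. Depth limits low values: 1 count was worth over 8 CPM in L4R8M and over 12 CPM in L4R10S.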
